A study of Mus musculus with 8 samples.

Results

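The genes described here are 9 members of the TGF-beta and activin pathway: the ligand genes Tgfb1, Tgfb2, Tgfb3, Inhba and Inhbb, the receptor genes Tgfbr1 and Tgfbr2, the activin antagonist gene Fst and the inhibitory SMAD gene Smad7. They were taken by name from a table of 49315 gene identifiers, and all 9 were found, of which 6 reached at least 1 TPM in at least 4 libraries and entered the tests. The table holds 8 RNA-seq libraries of polyadenylated RNA from cultured mouse cells of pancreatic ductal adenocarcinoma. The 4 lines are named 6694c2, 2838c3, 6499c4 and 6419c5, and each gave 1 library of the WT (parental) genotype and 1 of the C1galt1c1-KO genotype, called KO below. C1galt1c1, also named Cosmc, encodes the chaperone of the core 1 O-glycan synthase, and cells that lack it display the shortened Tn O-glycan. All 8 cultures were grown in the same serum-containing medium with no other treatment named. The labels do not say whether each KO culture is a clone or a pool, and 1 library per genotype and line leaves differences within a line without a replicate check. Levels are TPM, length-corrected transcript shares of a library that sum to 1000000, so levels can be compared between genes.

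TGF-beta ligands are secreted in a latent form and, once released, bind the type II receptor Tgfbr2, which phosphorylates the type I receptor Tgfbr1. Activins, dimers of the Inhba or Inhbb chains, use the type II receptors Acvr2a and Acvr2b and the type I receptor Acvr1b. Both routes phosphorylate Smad2 and Smad3, which enter the nucleus with Smad4. Smad7 is a target of this signal and blocks the type I receptors, while follistatin, the product of Fst, binds activin outside the cell. In pancreatic ductal cancer the pathway is known both as a brake on epithelial growth and as a driver of epithelial-mesenchymal transition. No protein, phosphorylation or glycan was measured in these data.

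The targeted gene was lower in each KO library, with C1galt1c1 at 37.0 to 54.2 TPM in the WT and 10.9 to 19.0 TPM in the KO libraries. Identifiers without a gene name took up 12.5% and 9.69% of all TPM in KO of 6694c2 and of 6419c5, against 0.713% to 1.33% in the 6 others, and a larger share there leaves a smaller one to all other genes. The median gene differed by -0.23, -0.08, -0.11 and -0.16 between KO and WT in 6694c2, 2838c3, 6499c4 and 6419c5 on the log2(TPM + 1) scale. Differences called relative below have this median taken off. The 2838c3 KO library resembled its parent least, with Pearson's r of 0.944 across 12900 genes, against 0.968 to 0.983 in the other lines. Of the 8 ductal epithelial markers, Krt8, Krt18, Krt19 and Cdh1 stood at 541 TPM or more in all libraries, while Epcam went down to 1.21 TPM and Cldn4 to 0.146 TPM. The summed level was 0.478 to 5.37 TPM for 8 fibroblast markers, 0.245 to 4.34 TPM for 6 endothelial markers and 12.02 to 49.98 TPM for 10 acinar and islet markers, of which 5 were at 0 in all libraries. The immune list was led by Cd68, which tumor cells also express, and Ptprc, the marker of all white blood cells, stood at 0 to 0.151 TPM.

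For the ligand gene Tgfb1 and for Inhba and Tgfbr1, whose KO libraries departed most from their parents in 2838c3, the 250 bases before the start of the canonical GENCODE transcript are shown, read from the GRCm39 assembly. They lie at chr7:25386140-25386389 for Tgfb1, chr13:16188733-16188982 for Inhba and chr4:47352884-47353133 for Tgfbr1, all on the plus strand, and no annotated exon overlaps them. Capitals mark the GC box GGGCGG, a site of Sp1-type factors, and the SMAD box CAGAC, each on either strand.

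Tgfb1: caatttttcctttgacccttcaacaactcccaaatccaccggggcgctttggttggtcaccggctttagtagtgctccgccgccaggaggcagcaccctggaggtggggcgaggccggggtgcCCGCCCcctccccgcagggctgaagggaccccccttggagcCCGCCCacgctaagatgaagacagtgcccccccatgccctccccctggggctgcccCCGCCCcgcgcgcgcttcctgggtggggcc

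Tgfbr1: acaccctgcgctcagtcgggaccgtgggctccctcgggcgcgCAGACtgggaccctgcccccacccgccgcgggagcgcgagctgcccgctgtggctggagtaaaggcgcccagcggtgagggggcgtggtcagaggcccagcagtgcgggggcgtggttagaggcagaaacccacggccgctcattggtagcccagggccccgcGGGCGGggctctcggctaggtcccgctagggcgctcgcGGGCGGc

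Inhba: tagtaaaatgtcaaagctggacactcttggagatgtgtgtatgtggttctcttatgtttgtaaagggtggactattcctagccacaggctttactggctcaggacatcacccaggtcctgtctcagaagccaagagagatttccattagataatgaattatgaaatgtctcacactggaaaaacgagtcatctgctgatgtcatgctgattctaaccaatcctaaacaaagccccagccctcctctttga

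The Tgfb1 and Tgfbr1 windows are rich in G and C, at 69.6% and 75.2%, against a median of 57.2% over the same windows of 11380 genes. The Tgfb1 window holds 3 GC boxes and the Tgfbr1 window 2, a motif found in 50.8% of all windows. Tgfbr1 also has 1 SMAD box, which 41.0% of windows hold. The Inhba window is at 43.2% G and C and holds neither motif. None of the 3 holds the SMAD palindrome GTCTAGAC (0.272% of windows), the AP-1 motif TGANTCA (4.62%), the cAMP response motif TGACGTCA (2.14%) or TATAAA (7.18%), all searched on both strands. A match is a description of letters and not a bound site. Inhba has a further annotated start upstream, since the gene model begins at 16186373 on chromosome 13.

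Tgfb1 was the most abundant of the ligand genes among the members in 7 of 8 libraries. Its level in WT and KO was 57.1 and 52.3 TPM in 6694c2, 63.4 and 88.9 TPM in 2838c3, 24.3 and 38.3 TPM in 6499c4, and 37.7 and 39.8 TPM in 6419c5. The highest levels were those of 2838c3 and the lowest that of 6499c4 WT, and the KO value was above the WT value in 3 of 4 lines. Relative to the median gene the differences were 0.10, 0.56, 0.74 and 0.23 in the same order of lines. Of all genes tested, 60.0%, 83.9%, 97.4% and 76.1% lay lower than Tgfb1 in these lines. Ordered by the mean of their libraries, the lines ran 2838c3, 6694c2, 6419c5 and 6499c4, and only the ranges of the last pair overlapped. Tgfb1 (ENSMUSG00000002603) lies on chromosome 7 at 25386390 to 25404506. The KO minus WT estimate of limma was 0.27 on the log2 scale (SE 0.17, 95% interval -0.14 to 0.67), at 45.6 ± 17.9 TPM in WT and 54.8 ± 23.6 TPM in KO (SD, n = 4 libraries). It did not pass, with an adjusted limma p of 0.610.

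Tgfb3, a ligand prominent in epithelial development, split the lines more widely. Its WT and KO levels were 3.86 and 0.967 TPM in 6694c2, 5.99 and 9.26 TPM in 2838c3, 17.5 and 18.5 TPM in 6499c4, and 42.4 and 18.8 TPM in 6419c5. Each line's pair of libraries lay apart from that of the next line, in the order 6419c5, 6499c4, 2838c3, 6694c2, though only just for 6419c5 KO and 6499c4 KO. KO was far below WT in 6694c2 and 6419c5, at 25.1% and 44.3% of the parent, and above it in the other pair of lines, at 154% and 106%. The 2 lines with low KO values are those whose KO libraries held the most unnamed RNA. Relative to the median gene the Tgfb3 differences in them were -1.08 and -0.98. The part of the unnamed RNA in these 2 differences was not tested. The gene (ENSMUSG00000021253) lies on the minus strand of chromosome 12 at 86102756 to 86126301. Over all lines the limma estimate was -0.45 (SE 0.33, adjusted p = 0.645), and without 6694c2 and 6419c5 it turned to 0.31 (adjusted p = 0.781).

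Tgfb2 was the scarcest of the 3 TGF-beta ligands in all libraries. It stood at 0.825 and 0.290 TPM in WT and KO of 6694c2, 1.34 and 0.920 TPM in 2838c3, 0.178 and 0.172 TPM in 6499c4, and 3.63 and 1.72 TPM in 6419c5. KO was below WT in 4 of 4 lines, by little in 6499c4. Tgfb2 (ENSMUSG00000039239, chromosome 1, 186354985 to 186438294, minus strand) failed the filter of at least 1 TPM in at least 4 libraries. Fitted with no filter it had a log2 difference of -0.39 (SE 0.17, adjusted p = 0.769). The Tgfb1 to Tgfb2 ratio within a library does not move with the share that other RNA takes up. It went from 69.2 to 180 in 6694c2, from 47.3 to 96.7 in 2838c3, from 137 to 223 in 6499c4 and from 10.4 to 23.2 in 6419c5. The mean change was 1.07 ± 0.28 on the log2 scale (SD, n = 4 lines), higher in 4 of 4 lines. By an exact two-sided sign-flip test this had p = 0.13, the floor for 4 lines, which cannot pass 0.05, and p = 0.375 after Benjamini-Hochberg adjustment over the 3 ratios tested.

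The make-up of TGF-beta ligand mRNA differed between the lines. Tgfb1 made up 89.6% to 97.7% of the summed TPM of the 3 ligands in 6694c2 and 2838c3, but 45.0% to 67.2% in 6499c4 and 6419c5. Tgfb3 supplied most of the rest, from 1.81% in the 6694c2 KO library to 50.7% in the 6419c5 WT library. Tgfb1's share was higher in KO than in WT in all 4 lines, by the least in 2838c3, at 89.6% and 89.7%. The summed level of the 3 ligands ranged from 42.0 TPM in 6499c4 WT to 99.1 TPM in 2838c3 KO.

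**Figure D1:**
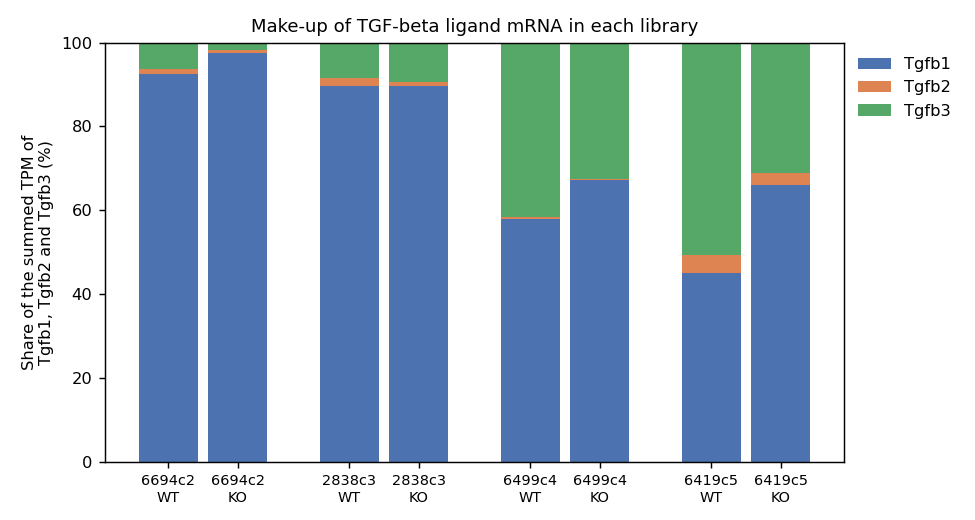
Stacked bars give the share (%) of Tgfb1, Tgfb2 and Tgfb3 in their summed TPM for each of the 8 libraries. Tgfb3 is a large part in 6499c4 and 6419c5, up to 50.7%, and a small one in 6694c2 and 2838c3, at most 9.34%.

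Inhba, which encodes the activin A chain, was the member furthest above its parents in the KO libraries. Its WT and KO levels were 10.9 and 7.69 TPM in 6694c2, 9.18 and 45.8 TPM in 2838c3, 3.80 and 11.2 TPM in 6499c4, and 4.79 and 7.08 TPM in 6419c5. The KO library of 2838c3 stood far above the 7 others, and the WT and KO groups overlapped. KO over WT was 4.98-fold in 2838c3, 2.94-fold in 6499c4 and 1.48-fold in 6419c5, with 0.704 in 6694c2. Among 12900 genes, the Inhba difference ranked 73rd from the highest in 2838c3 and 46th in 6499c4. The gene (ENSMUSG00000041324) lies on chromosome 13 at 16186373 to 16206206. The limma estimate was 0.89 (SE 0.41, 95% interval -0.07 to 1.86, adjusted p = 0.561). The estimate depended on the lines kept. It was 0.46 without 2838c3 (adjusted p = 0.532), 1.34 without 6694c2 (adjusted p = 0.794) and 1.77 without 6694c2 and 6419c5 (adjusted p = 0.628).

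The other activin chain and the activin antagonist were barely present. Inhbb (ENSMUSG00000037035, chromosome 1) was listed at 0 in 3 libraries and reached 0.202 TPM in 2838c3 KO and 0.0760 TPM in 2838c3 WT. Fst (ENSMUSG00000021765, chromosome 13) was listed at 0 in the WT libraries of 6694c2 and 2838c3 and stood at 0.0379 and 0.134 TPM in their KO libraries. In 6499c4 it was at 0.881 TPM in WT and 0.472 TPM in KO, and in 6419c5 at 0.617 and 0.798 TPM. The 4 libraries of 6499c4 and 6419c5 thus lay above the 4 of the other lines. The smallest value above 0 among genes within 10% of the Fst exon length was 0.0096 to 0.0217 TPM across libraries, so the lowest Fst and Inhbb values are a few such steps. Neither gene passed the filter. Fstl3, a relative of Fst that also binds activin, was more abundant. It stood at 12.8 TPM in 2838c3 WT and 81.8 TPM in 2838c3 KO, and between 8.76 and 18.1 TPM in the 6 others.

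**Figure D2:**
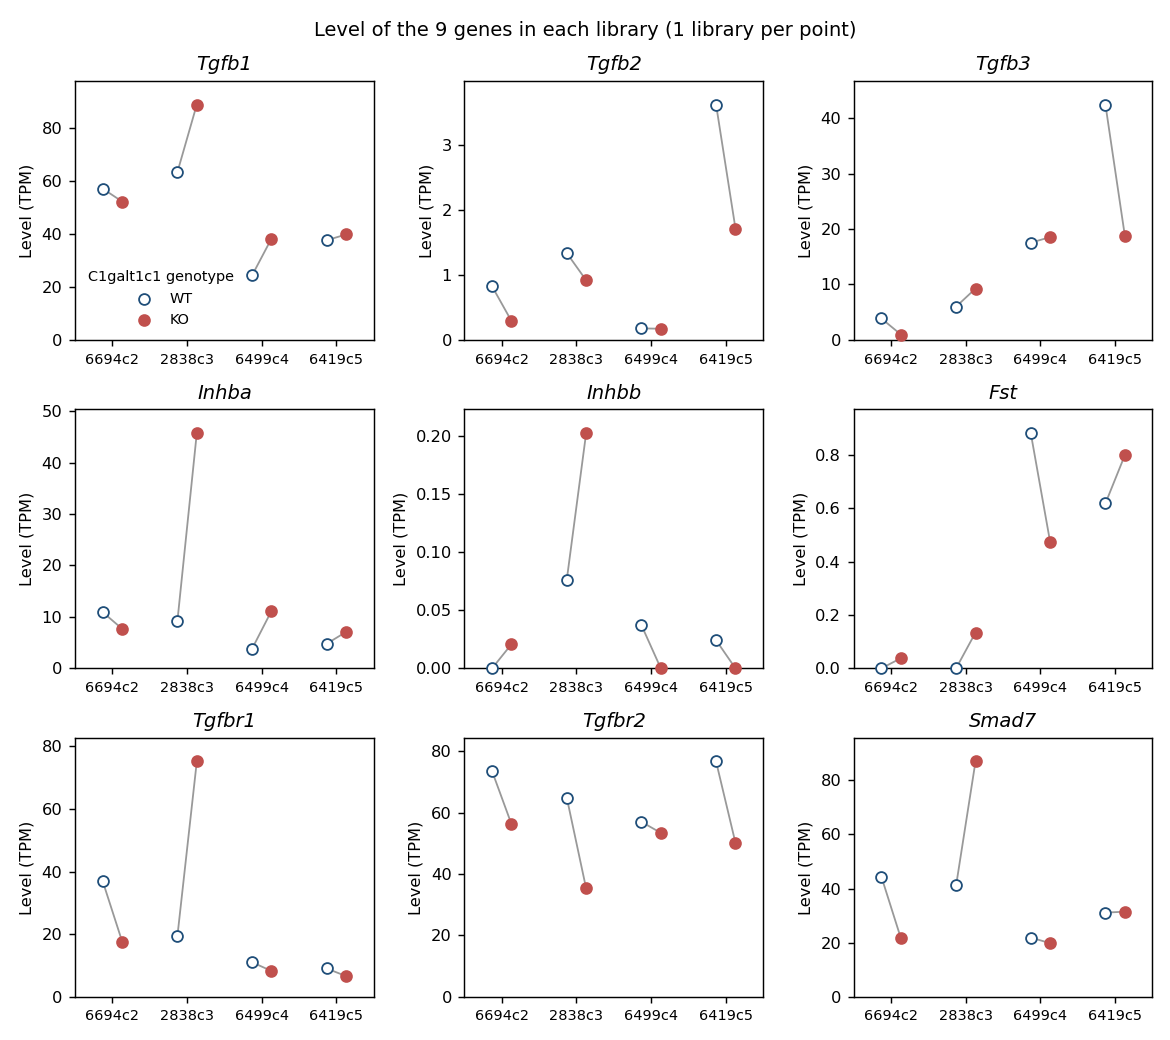
Each panel plots the level (TPM, linear axis from 0) of 1 gene in the 8 libraries, with open points for WT, filled points for KO and a grey line joining the libraries of a cell line. Inhba, Tgfbr1 and Smad7 are highest in the 2838c3 KO library, at 45.8, 75.1 and 86.9 TPM, while Tgfbr2 is lower in KO in all 4 lines.

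Tgfbr2, the type II receptor gene, was lower in KO in all 4 lines. WT and KO levels were 73.6 and 56.3 TPM in 6694c2, 65.0 and 35.3 TPM in 2838c3, 57.1 and 53.5 TPM in 6499c4, and 76.7 and 50.2 TPM in 6419c5. In unscaled TPM the groups did not overlap. The lowest WT library (6499c4), at 57.1 TPM, lay just above the highest KO library (6694c2), at 56.3 TPM. Unnamed identifiers took up 1.11% of TPM in the former and 12.5% in the latter. Whether the groups stay apart after rescaling was not tested. Among all genes tested, 1.34% had all KO libraries below all WT libraries and 18.5% were lower in KO in each of the 4 lines. Group means were 68.1 ± 8.87 and 48.8 ± 9.33 TPM (SD, n = 4 libraries). The limma estimate was -0.48 on the log2 scale (SE 0.16, 95% interval -0.87 to -0.09). Its unadjusted p of 0.0222 ranked 511th of 12900 genes and its adjusted p was 0.556, so it did not pass. The limma estimate was -0.33 after median-ratio scaling (unadjusted p = 0.0979) and -0.35 after quantile normalization (unadjusted p = 0.0644). With structural RNA removed the limma estimate was -0.40 (unadjusted p = 0.0492). That setting drops all unnamed identifiers along with annotated small and ribosomal RNAs. The unnamed identifiers were not shown to be structural RNA. Relative to the median gene the difference was -0.34, and in 6499c4 the relative difference was 0.01. Tgfbr2 (ENSMUSG00000032440) lies on the minus strand of chromosome 9 at 115913361 to 116004800. It varied least between lines of the members tested, with overlapping ranges for all neighbours in the order 6694c2, 6419c5, 6499c4, 2838c3.

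Tgfbr1, the type I receptor gene, gave the opposite picture in 2838c3. Its WT and KO levels were 36.9 and 17.7 TPM in 6694c2, 19.4 and 75.1 TPM in 2838c3, 11.04 and 8.25 TPM in 6499c4, and 9.05 and 6.59 TPM in 6419c5. KO was below WT in 3 lines and 3.88-fold above it in 2838c3, where the gene ranked 127th from the highest of 12900. By the mean of their libraries 2838c3 and 6694c2 were high and overlapped, and 6499c4 and 6419c5 were low and overlapped. Over all lines the limma estimate was 0.02 (SE 0.45, adjusted p = 0.990). Without 2838c3 it was -0.60, with an adjusted limma p of 0.374. The gene (ENSMUSG00000007613) lies on chromosome 4 at 47353134 to 47414931. The ratio of Tgfbr1 to Tgfbr2 went from 0.298 to 2.13 in 2838c3, the 1 library in which the type I transcript exceeded the type II transcript, and was 0.118 to 0.501 in the 6 libraries of the other lines. Its mean log2 change of 0.50 ± 1.60 (SD, n = 4 lines) was smaller than the spread between lines (exact two-sided sign-flip p = 0.875). The activin type I receptor gene Acvr1b was at 29.6 and 63.9 TPM in the WT and KO libraries of 2838c3 as well. The activin type II receptor gene Acvr2a was flat there, at 10.8 and 10.5 TPM, and the Tgfbr2 to Acvr2a ratio ranged from 3.37 to 12.5 over the libraries (mean log2 change -0.20 ± 0.78, SD, n = 4 lines, exact sign-flip p = 0.750).

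Smad7, the inhibitory SMAD, followed the type I receptor. It stood at 44.3 and 21.7 TPM in WT and KO of 6694c2, 41.1 and 86.9 TPM in 2838c3, 21.9 and 19.8 TPM in 6499c4, and 31.1 and 31.4 TPM in 6419c5. The KO library was at 211% of its parent in 2838c3 and at 48.9% in 6694c2, and the other pair of lines was nearly level. Over all lines the limma estimate was -0.02 (SE 0.31, adjusted p = 0.991), and its sign depends on the scaling, with 0.14 after median-ratio scaling. The gene is ENSMUSG00000025880. Skil, another feedback inhibitor, tracked it most closely among the pathway genes, with Pearson's r of 0.969 over the 8 libraries.

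None of the 6 members that passed the filter had an adjusted limma p under 0.05 for KO against WT. Across all 12900 genes the call rate was 0%, with 0 genes called by limma. At an unadjusted limma p under 0.05, 0.86% of genes were higher and 7.95% lower in KO, and 0 and 1 of the 6 members were, the latter being Tgfbr2. Lower genes made up 90.2% of these, but 54.0% after median-ratio scaling. The members under this threshold also changed with the scaling. Tgfb1 and Inhba, higher in KO, were under it after median-ratio scaling and after quantile normalization, and Tgfbr2 was not. Their limma estimates were 0.42 (Tgfb1) and 1.03 (Inhba) in the former setting and 0.42 and 1.06 in the latter. With structural RNA removed, Inhba (higher) and Tgfbr2 (lower) were under it. The labels do not say that cultures were repeated, so these p-values measure only the spread between the 4 lines.

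Within single lines, 3 of the 6 members stood at least 2-fold higher in KO relative to the median gene in 2838c3: Inhba at 2.28, Tgfbr1 at 1.98 and Smad7 at 1.14. Among all genes 5.89% were that much higher and 6.47% that much lower in this line. In 6499c4 Inhba alone passed 2-fold, at 1.45, against 1.12% of genes higher and 1.26% lower. In 6694c2 Tgfb3 alone passed, downward at -1.08, against 3.17% of genes lower and 2.79% higher. In 6419c5 0 of 6 passed, with Tgfb3 just short at -0.98, where 2.09% of genes were higher and 1.44% lower. Without taking off the median gene, Tgfb3 in 6419c5 (-1.13) and Tgfbr1 in 6694c2 (-1.02) passed as well. These are differences between 2 libraries each and carry no test. Mitosis and hypoxia genes, 12 of each, were listed after their values were seen. The relative median of the mitosis genes was -0.35 in 6694c2, -3.05 in 2838c3, -0.17 in 6499c4 and 0.99 in 6419c5. All 12 were at least 2-fold lower in 2838c3, and 6 were at least 2-fold higher in 6419c5. The relative median of the hypoxia genes was -0.83, 2.01, 0.48 and -0.33 in the same order of lines. Of the hypoxia genes, 9 were at least 2-fold higher in 2838c3 and 1 in 6499c4, and 6 were at least 2-fold lower in 6694c2. The shares of all genes are those given above. Of the 8 ductal markers, Epcam went from 1.35 to 25.1 TPM and Cldn4 from 0.623 to 8.88 TPM between WT and KO of 2838c3, with a list median of 0.30, and the immune marker Cd68 went from 8.93 to 28.1 TPM. The part of these values in the member differences was not tested.

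**Figure D3:**
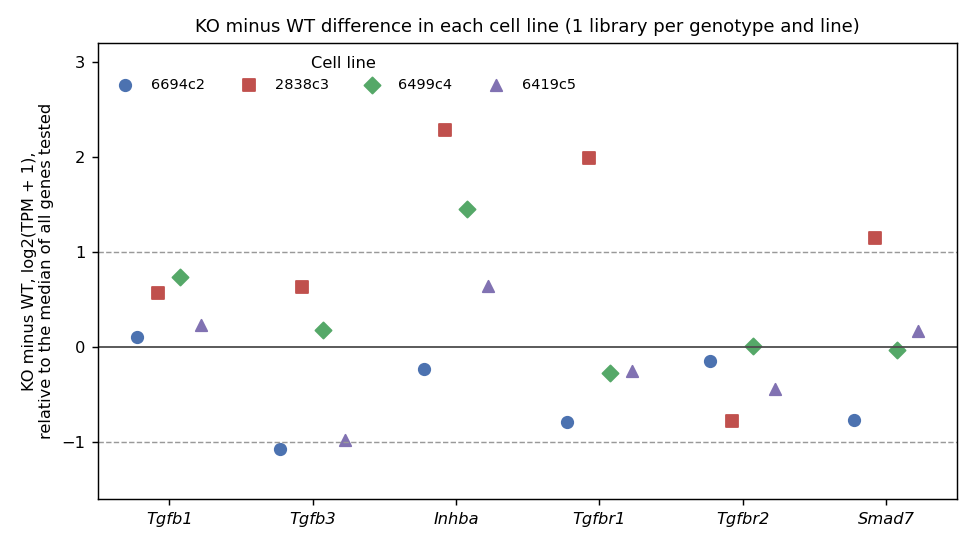
Points give KO minus WT on the log2(TPM + 1) scale, relative to the median of all genes tested, for the 6 members that passed the filter, 1 point per cell line, with dashed lines at 2-fold. Inhba, Tgfbr1 and Smad7 in 2838c3 and Inhba in 6499c4 lie above the upper dashed line, and Tgfb3 in 6694c2 lies below the lower one.

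The level of 2 members differed between the cell lines. The limma F-test on the line terms called Tgfb3 (adjusted p = 0.0155) and Tgfb1 (adjusted p = 0.0399), 2 of 6 members, where 16.9% of all genes were called. The only replicates of a line in these tests were its WT and KO libraries. Their spread is thus how KO minus WT varied between lines, and not that of repeated cultures. Tgfbr1, Smad7, Inhba and Tgfbr2 had adjusted limma p-values of 0.107, 0.155, 0.181 and 0.456. Set against the mean of the other lines, Tgfb3 was lower in 6694c2 by a log2 difference of -2.44 (SE 0.39, adjusted p = 0.0129) and higher in 6419c5 by 1.89 (SE 0.39, adjusted p = 0.0263). The share of all genes called in these directions was 7.28% and 8.87%. Tgfb1 was higher in 2838c3 by 0.89 (SE 0.20, adjusted p = 0.0482), where 2.58% of genes were called higher. The calls depend on single lines. Tgfb3's F-test call was lost without 6694c2 (adjusted p = 0.0785), its 6694c2 call without 6499c4 or 6419c5 (adjusted p = 0.0596 and adjusted p = 0.0577) and its 6419c5 call without 6694c2 (adjusted p = 0.109). Tgfb1's F-test call was lost without 2838c3, 6499c4 or 6419c5 (adjusted p = 0.0776, adjusted p = 0.136 and adjusted p = 0.0824), and its 2838c3 call without 6499c4 or 6419c5 (adjusted p = 0.201 and adjusted p = 0.139). Tgfb1 in 6499c4, at -0.81, had an adjusted limma p of 0.0596, and 0 members were called in the remaining directions. Those directions held 3.44% of genes for higher in 6694c2, 3.88% for lower in 2838c3, 3.33% and 3.84% for higher and lower in 6499c4, and 2.95% for lower in 6419c5. Tgfbr1, Inhba and Smad7 stood higher in 2838c3 by 1.55, 1.43 and 1.11, with adjusted limma p-values of 0.143, 0.136 and 0.131. Some calls were gained in other settings. Without 2838c3 the F-test on the other 3 lines called Tgfbr1 (adjusted p = 0.00924), and Tgfbr1 was called lower in 6419c5 (adjusted p = 0.0259). Inhba was called higher in 2838c3 without 6694c2 (adjusted p = 0.0455) and by the F-test without 6694c2 and 6419c5 (adjusted p = 0.0414). In 6499c4, Tgfb3 was called higher without 6419c5 (adjusted p = 0.0441) and Tgfb1 lower with structural RNA removed (adjusted p = 0.0298).

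Other genes of the pathway were read from lists of ligands, latency proteins, receptors, SMADs, inhibitors and textbook targets. Targets that passed the filter numbered 21 of 27. In 2838c3 13 of the 21 stood at least 2-fold higher in KO relative to the median gene and 0 lower, with a list median of 1.14 (the value of Smad7, itself on the list), against 5.89% of all genes higher and 6.47% lower. In 6694c2 1 was that much higher and 7 lower, with a median of -0.57, against 2.79% and 3.17% of all genes. In 6499c4 2 were higher, against 1.12% of all genes, and in 6419c5 5, against 2.09%, with medians of 0.43 and 0.37 and 0 lower in both. The direction of the list thus differed between 2838c3 and 6694c2, which was not tested, since each difference rests on 2 libraries.

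The matrix gene Fn1, encoding fibronectin, was at 129 and 1054 TPM in WT and KO of 2838c3 and at 200 and 40.6 TPM in 6694c2. Ccn2, a matricellular growth factor gene, was at 90.9 and 782 TPM in 2838c3 and at 172 and 29.8 TPM in 6694c2. The same opposite order held for Thbs1, which encodes the TGF-beta activator thrombospondin 1, at 42.1 and 405 TPM against 37.5 and 5.97 TPM. These 3 genes were chosen after their values were seen, for their wide differences, and each also responds to signals other than TGF-beta.

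By the rule for named genes, the targets with the smallest p in KO against WT were Cdkn1a and Snai2 above and Itgb6 and Col4a1 below. Cdkn1a, the p21 cell cycle inhibitor gene, had a log2 difference of 1.26 (SE 0.35, adjusted p = 0.556) and Snai2, an epithelial-mesenchymal transition factor gene, 1.07 (SE 0.34, adjusted p = 0.556). Itgb6, an integrin subunit gene that is both an activator of latent TGF-beta and a target, had -0.77 (SE 0.30, adjusted p = 0.561) and Col4a1 -0.33 (SE 0.15). None passed after adjustment over all genes. At an unadjusted limma p under 0.05, 2 of 21 targets were higher and 1 lower, against 0.86% and 7.95% of all genes. The list median was 0.21, against -0.15 for all genes tested. Between lines 4 of the 21 targets were called by the F-test, against 16.9% of all genes, with Cdkn2b, the p15 gene, at 1.52 and 2.12 TPM in 6694c2 and at 196 to 352 TPM elsewhere, and Acta2, the smooth muscle actin gene, at 11.6 and 33.2 TPM in 6419c5 and at most 2.67 TPM elsewhere.

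Genes for latency proteins and activators also differed in opposite directions between 2838c3 and 6694c2. Of 15 listed, 9 passed the filter, with relative medians of 0.88 in 2838c3 and -0.75 in 6694c2, and 3 stood 2-fold higher in the former (5.89% of all genes) and 3 2-fold lower in the latter (3.17% of all genes). Thbs1 is among both sets and Itgb6 among the lower one, and both genes are also on the target list and were counted in it. Ltbp4, a latent TGF-beta binding protein gene, was at 42.6 and 159 TPM in the WT and KO libraries of 2838c3 and at 92.3 and 46.5 TPM in 6694c2. Ltbp1, another gene of that family, was at 25.5 and 45.2 TPM against 32.5 and 11.9 TPM. The integrin subunit gene Itgb5 (adjusted p = 0.0261) and Ltbp1 (adjusted p = 0.0468) were called between lines by the limma F-test. They were 2 of the 9, where 16.9% of all genes were called. At an unadjusted limma p under 0.05, 0 of the 9 were higher and 1, Itgb6, was lower in KO, against 0.86% and 7.95% of all genes.

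Among the inhibitor genes, 6 of 11 stood at least 2-fold higher in the KO library of 2838c3, against 5.89% of all genes: Fstl3, Tgif1, Skil, Smad7, Pmepa1 and Smurf2. Of these, Tgif1, Skil, Smad7 and Pmepa1 are also on the target list and were counted in it, so the lists are not separate. The relative median of the inhibitors in 2838c3 was 1.07, while Tgif2 and Lefty1 lay lower, at -0.27 and -0.41. The relative medians of this list were -0.32 in 6694c2, 0.22 in 6499c4 and -0.06 in 6419c5, with 0 past 2-fold in those lines. Tgif1, a SMAD co-repressor gene, had the smallest p of the list in KO against WT, at 0.42 (SE 0.22, adjusted p = 0.576). The 4 SMAD genes of the branch (Smad2, Smad3, Smad4 and the anchor gene Zfyve9) stayed within 2-fold, with relative differences of -0.34 to 0.57 in any line. Smad4, often deleted in human pancreatic cancer, stood at 56.4 to 112 TPM in all 8 libraries. Among the 6 receptor genes tested, 0 were called between lines, against 16.9% of all genes. In 2838c3 Tgfbr1 and Acvr1b passed 2-fold upward, against 5.89% of all genes.

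**Figure D4:**
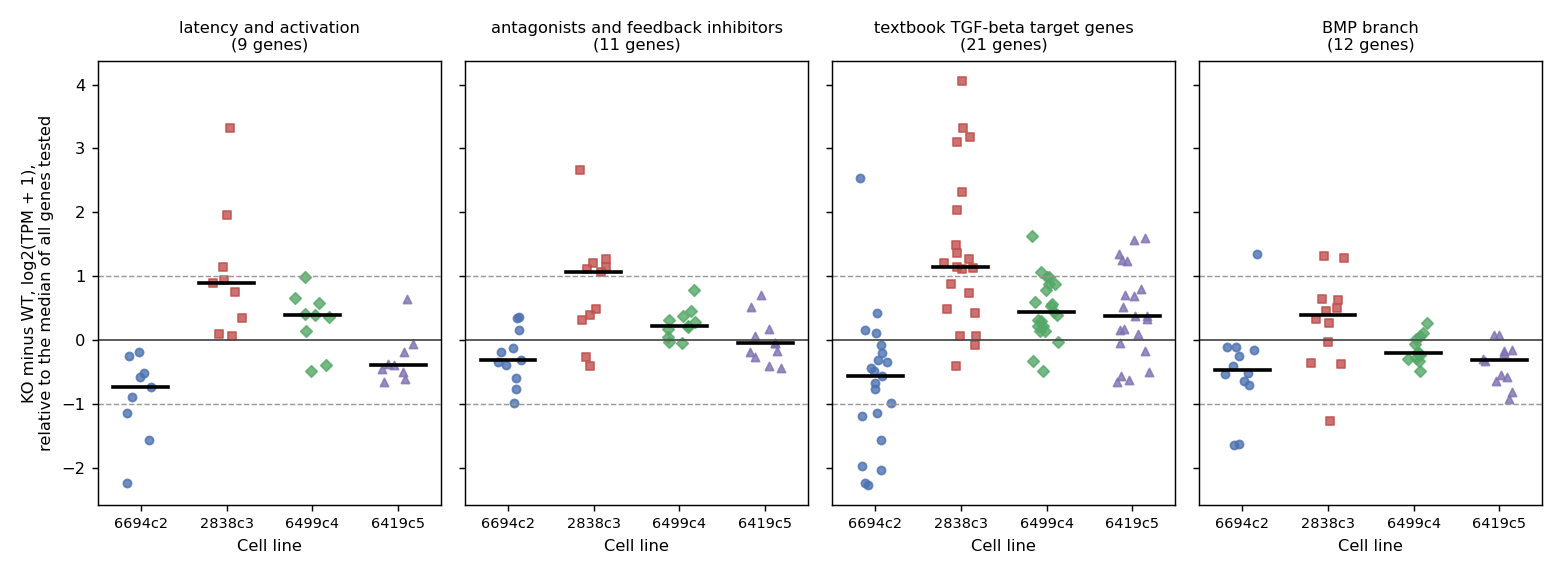
Each point is 1 gene of a pathway list, plotted as KO minus WT on the log2(TPM + 1) scale relative to the median of all genes tested, by cell line, with black bars for the list median and dashed lines at 2-fold. For the target genes the bar lies at 1.14 in 2838c3 and at -0.57 in 6694c2, and for the inhibitors at 1.07 and -0.32.

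By Pearson's r of log2(TPM + 1) over the 8 libraries, a description over points that share lines and scaling, the 3 nearest protein-coding genes were named for each member out of 11379. For Smad7 they were Thnsl1, Skil and Rnf19a, with r of 0.984, 0.969 and 0.965. For Tgfbr1 they were Ktn1 (r = 0.986), Mllt3 (r = 0.979) and Pcbp2 (r = 0.976). For Inhba they were Efna3, Ifitm10 and Zfp697, with r of 0.965, 0.962 and 0.954, all highest in 2838c3 KO. For Tgfb3 they were Shroom3, Decr2 and Slc26a10, with r of 0.992, 0.991 and 0.990, all highest in 6419c5 WT. For Tgfb1 they were Dlg4, Lsm14b and Prpf40b, with r of 0.976, 0.967 and 0.954, and for Tgfbr2 Pabir1, Pigbos1 and Ubxn8, with r of 0.929, 0.920 and 0.910. Among the members themselves, Tgfb1, Tgfbr1, Inhba and Smad7 had r of 0.784 to 0.841 with each other, while Tgfbr2 had r of -0.706 with Inhba. These values lean on the 2838c3 KO library, which held the highest level of Tgfb1, Tgfbr1, Inhba and Smad7 and the lowest of Tgfbr2.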

How the data were processed

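The authors deposited 1 table of TPM values per gene and library. The submitters' processing notes name cutadapt (version 5.1), STAR (2.7.11b), featureCounts (2.1.1), DESeq2 (2.11.40.8) and the build mm39, without their roles; how the TPM were computed, and with which gene lengths, is not stated there. The stated depth of 20 to 30 times 1000000 read pairs could not be checked, since TPM keep no depth. Names came from GENCODE vM39 (GRCm39), which matched 45505 of 49315 identifiers.

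Genes with at least 1 TPM in at least 4 libraries were kept (12900). limma 3.58.1 (R 4.3.3) was fitted across all of them to log2(TPM + 1) with a mean-variance trend; the model held the genotype and, as a block, the line. P-values were adjusted over all genes (Benjamini-Hochberg, threshold 0.05). Such differences understate the change of low genes. WT and KO share a line, and their deviations from the group means correlated with r from 0.421 to 0.789. The fit was tested on simulated data. Tests between lines held the line and the genotype, with the WT and KO libraries of a line as its only replicates. Differences within a line have no test.

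Members, lists and alternatives were chosen with earlier results of these data known, and 2 lists (mitosis, hypoxia) were added after the values were seen. Named genes are the members, the 2 genes of smallest p of each list in each direction and between lines, and the 3 genes most like each member; others were picked by size. Tables and figures used Python 3.11.15, pandas 2.3.3 and matplotlib 3.10.9. A gene of the target list is counted in the lists but not reported by name here.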

Additional observations from a re-analysis of the deposited data

Results flagged for a closer look

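In 3 of 20 groups of 4 libraries (10 genes in 2 genotypes), 1 library lay apart from the others by Dixon's criterion, which chance meets in about 5% of groups. All 3 were the 2838c3 KO library: Tgfbr1 at 75.1 TPM against 6.59 to 17.7 TPM in the other KO libraries, Inhba at 45.8 TPM against 7.08 to 11.2 TPM, and Inhbb at 0.202 TPM against 0 to 0.0208 TPM. The Inhbb level is too low for its size to be read. The 5% holds for independent, normally distributed values. The 20 groups share libraries and their levels were not shown to be normal, so 3 of 20 is no test against it.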

How the results depend on the processing

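No setting gave a gene with an adjusted limma p under 0.05 for KO against WT, and without the replicate block the unadjusted calls went from 111 higher and 1026 lower to 34 and 176. After median-ratio scaling they were 297 and 349, after quantile normalization 322 and 333, and without 6694c2 and 6419c5 344 and 674. The KO estimate of Smad7 changed sign to 0.14 (median-ratio), 0.15 (quantile), 0.068 (structural RNA removed) and 0.46 (without 6694c2 and 6419c5), and ranged from -0.37 to 0.31 when 1 line was left out. That of Tgfb3 was 0.31 without 6694c2 and 6419c5, and that of Tgfbr1 was 0.76 there and -0.60 (without 2838c3) to 0.37 with 1 line left out. That of Inhba ranged from 0.46 to 1.77 over 14 settings. At a pseudocount of 0.1 the Tgfb3 difference in 6419c5 was -1.0001, just past 2-fold. The Tgfbr1 to Tgfbr2 ratio change ranged from -0.28 (without 2838c3) to 0.89, and that of Tgfbr2 to Acvr2a from -0.57 to 0.012 (without 2838c3). Genes called between lines, 2178 in the report, numbered 944 without 6694c2 and 6419c5 and 871 to 3708 with 1 line left out. With no filter on low values 596, 315 and 580 genes were called for 6694c2, 2838c3 and 6499c4 against the others, from 1383, 834 and 926. With 1 line left out the counts were 398 to 3423 for 6694c2, 261 to 1232 for 2838c3 and 881 to 2398 for 6419c5. The Tgfb1 call in 2838c3 was lost in 8 of 12 settings and its call between lines in 5 of 14. The Tgfb3 call between lines was lost with no filter (adjusted p = 0.0668), without 6694c2 (adjusted p = 0.0785) and without 6694c2 and 6419c5 (adjusted p = 0.0645). The cause was not tested. A line could not be set against the others once left out, and ratios to Fst or Inhbb, listed at 0 in some libraries, were not computed. TPM give no depth, so no limit can be put on the levels listed at 0.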

Other observations

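The BMP branch, the sister pathway that signals through Smad1 and Smad5, had 12 of 16 listed genes above the filter. Id3, an inhibitor of differentiation and a direct BMP target, was below its parent in all 4 lines, at 25.3 and 12.7 TPM in WT and KO of 6694c2, 161 and 118 TPM in 2838c3, 134 and 88.6 TPM in 6499c4, and 370 and 263 TPM in 6419c5. Its log2 difference was -0.62 (SE 0.14, adjusted p = 0.542), and 18.5% of all genes tested were lower in KO in each of the 4 lines. Id1, a close relative, was at 847 and 330 TPM in 2838c3 and at 235 and 64.3 TPM in 6694c2. Id2, of the same family, was at 340 and 780 TPM in 2838c3 and at 587 and 160 TPM in 6694c2, and the relative median of the branch was 0.39 and -0.47 in these lines. The relative median was -0.21 in 6499c4 and -0.31 in 6419c5, and -0.09 for the limma estimates over all lines. At an unadjusted limma p under 0.05, 0 of the 12 were higher and 4 lower in KO, against 0.86% and 7.95% of all genes. Between lines 6 of the 12 were called, against 16.9% of all genes. Bmp2 stood at 28.8 to 62.1 TPM in 6419c5 and at 0.0891 to 0.0932 TPM in 6499c4. The BMP antagonist gene Grem1 stood at 42.3 to 83.4 TPM in 6419c5 and at 0.171 to 1.19 TPM in the 6 libraries of the other lines.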
